A study of Mus musculus with 9 samples.

Results

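The p53 target genes Plk2, Mdm2, Ccng1, Trp53inp1, Phlda3, Sesn1 and Perp were followed in mouse haematopoietic stem and early progenitor cells with altered Runx1. They were taken by gene symbol from the probe set table of the array, and 7 of the 8 listed genes were found there on 13 of the 22626 probe sets tested. The other listed gene, Trp53 itself, was matched to none of the probe sets named by that table and was not analysed here. A gene is represented by its brightest probe set, 1 of 12393 genes in all, and the further probe sets are described beside it.

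The cells were KSL cells from bone marrow, which carry c-Kit and Sca-1 and lack lineage markers and IL7Ra, sorted from C57BL/6 mice. RUNX1(41-214) cells (n = 3) had been transduced with a retroviral vector for the fragment RUNX1(41-214), which holds the DNA-binding Runt domain, and were collected 4 months after transduction and transplantation. Runx1KO cells (n = 3) came from Runx1floxed/floxed mice with Mx-Cre, a recombinase transgene whose promoter responds to interferon and is active in many tissues besides blood, 3 months after poly IC, which induces interferon. Control cells (n = 3) came from mice with the same floxed alleles and no Mx-Cre, also 3 months after poly IC. No transplanted group with an empty vector and no group with Mx-Cre alone was among the 9 arrays, so the effects of transplantation, transduction and poly IC cannot be told apart from that of the fragment, nor those of Cre from that of the deletion. The labels call the arrays biological replicates and do not say whether animals were pooled.

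p53 is a transcription factor that stays at a low level in unstressed cells, because the ubiquitin ligase Mdm2 marks it for degradation. After DNA damage or other stress it accumulates, binds response elements made of paired half-sites, and switches on genes for growth arrest, repair, altered metabolism and cell death. Mdm2 is itself such a target, which closes a negative feedback loop. In blood stem cells p53 is known for limiting self-renewal and for keeping cells quiescent, and Runx1 has been linked to it as a partner in the response to damage.

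Facts common to all arrays bear on what follows. Median signals ran from 125 to 147 per array, and arrays of 1 group correlated at 0.976 to 0.992, those of different groups at 0.968 to 0.986. The log2 ratio between the 3′ and 5′ control probe sets of Gapdh, which rises as RNA is degraded, was 2.13 in Runx1KO replicate 3 and 1.85 in control replicate 2, against 0.98 to 1.29 in the other 7 arrays. Of the sort markers, Kit, the c-Kit gene, had signals of 2914 to 3783 in RUNX1(41-214), 2795 to 3491 in Runx1KO and 1981 to 2567 in control cells, the gene of Sca-1 was not analysed here, and Il7r, the gene of IL7Ra, had signals of 24.6 to 43.8 in RUNX1(41-214), 380 to 1179 in Runx1KO and 280 to 1400 in control cells. Single markers of other cells also moved with the groups, while their lists did so to differing degrees. The red cell gene Slc4a1 had 206 to 342 in RUNX1(41-214), 4.46 to 73.2 in Runx1KO and 8.30 to 83.8 in control cells. Of 4 red cell markers measured, 2 lay above control in RUNX1(41-214), with a median log2 fold change of -0.08. Their summed signal overlapped, at 519 to 1330, 277 to 854 and 267 to 2180 in the same order of groups. The early B cell gene Vpreb1 had 26.6 to 46.1 in RUNX1(41-214), 68.4 to 225 in Runx1KO and 82.5 to 218 in control cells. Of 6 B cell markers measured, 4 lay above control in RUNX1(41-214), with a median of 0.11. Cd48, a gene of early progenitors, had 3401 to 4260 in RUNX1(41-214), 2381 to 3872 in Runx1KO and 1399 to 1557 in control cells. Of 5 KSL markers measured, Kit and Cd48 among them, 4 lay above control in RUNX1(41-214), with a median log2 fold change of 0.57. In Runx1KO 4 of the 5 did, with a median of 0.49. Flt3 of the same list went the other way, with 1027 to 1405 in RUNX1(41-214), 937 to 1681 in Runx1KO and 1506 to 2071 in control cells. The neutrophil gene S100a8 was highest on replicate 1 of each group (758 in RUNX1(41-214), 118 in Runx1KO and 440 in control cells), against 10.4 to 52.99 on the other arrays. Of 8 granulocyte markers measured, 7 lay above control in RUNX1(41-214), with a median log2 fold change of 0.32. In Runx1KO 3 of the 8 did, with a median of -0.29. Elane of this list had 172 to 214 in RUNX1(41-214), 11 to 272 in Runx1KO and 27.7 to 68.6 in control cells. Prtn3 had 3739 to 4083, 2408 to 3271 and 2482 to 3426 in the same order of groups. The summed signal of the 8 markers overlapped, at 8740 to 11300, 7070 to 10800 and 6940 to 9490. The T cell gene Cd3e stayed at 24.6 or less on every array. Cd8a, another T cell gene, had 44.8 to 63.7 in RUNX1(41-214), 12.6 to 31.1 in Runx1KO and 25.25 to 35.3 in control cells. Of 5 T cell markers measured, 2 lay above control in RUNX1(41-214), with a median log2 fold change of -0.03. Their summed signal was 99.6 to 123 in RUNX1(41-214), 69 to 88.8 in Runx1KO and 81.1 to 101 in control cells. The part of such cells in the other results was not tested. Runx1, the deleted gene, had signals of 2417, 3476 and 2563 in Runx1KO cells and 1815, 1958 and 2093 in RUNX1(41-214) cells, against 1701, 931 and 1475 in control cells. It was thus not lower in Runx1KO (log2 fold change 1.05 ± 0.21, SE, adjusted p = 0.0740 in limma), and its 5 probe sets had log2 fold changes of 0.15 to 1.58 there. Whether its probes lie within the deleted part was not known here, so that this signal checks nothing about the deletion.

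Of the 7 genes, 1 differed among the groups past an adjusted p of 0.05 in a moderated F test, where 3.4% of all genes did. Plk2, which encodes a polo-like kinase of centriole duplication and checkpoint responses, was the lowest in RUNX1(41-214) cells and the highest in Runx1KO cells, with control cells between them. Mdm2 was higher in every Runx1KO and every RUNX1(41-214) array but 1 than in every control array, by amounts that did not pass. Phlda3 was lower in both altered groups on average, and Ccng1, Trp53inp1, Sesn1 and Perp had arrays that overlapped between all groups. The 7 genes did not move in 1 direction in any comparison.

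Plk2 had signals of 15.5, 14.8 and 11.8 in RUNX1(41-214) cells, against 55.9, 111 and 106 in Runx1KO cells and 31.7, 32.1 and 44.6 in control cells. The arrays of the 3 groups did not overlap in any pairing, and Runx1KO replicate 1 was the lowest of its group. The mean was 14.03 ± 1.93 in RUNX1(41-214), against 91.0 ± 30.5 in Runx1KO (SD, n = 3 each). Control cells averaged 36.1 ± 7.34 (SD, n = 3). These are low signals: the probe set ranked between 16.9% and 47.1% of the way up from the dimmest of all probe sets, depending on the array, and no detection call was among the values used here.

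RUNX1(41-214) and Runx1KO cells were compared directly, although they also differ in transplantation, transduction and poly IC. On the log2(signal + 16) scale, which understates changes of dim genes, Plk2 was lower in RUNX1(41-214) by -1.76 ± 0.23 (SE), with an adjusted p = 0.00308 in limma over 12393 genes. Of the 7 genes it was the 1 that passed, and 1.36% of all genes passed in this comparison, 1.06% of all genes being lower. The adjusted p stayed between 0.00114 and 0.0201 over 19 alternative settings, the highest being that without Runx1KO replicate 3 and control replicate 2, the arrays with the highest Gapdh ratios. The log2 fold change itself ranged from -2.51 with an offset of 1 to -1.10 with an offset of 50, so that its size rests on the offset. The call does not apply where genes below the median signal are left out, since Plk2 is then not tested. In the moderated F test among the 3 groups its adjusted p was 0.00337.

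Against control cells the fold changes of Plk2 pointed in opposite directions, and neither passed. It was at -0.74 ± 0.23 (SE, adjusted p = 0.120) in RUNX1(41-214) minus control and at 1.02 ± 0.23 (adjusted p = 0.108) in Runx1KO minus control, in limma fits that share the 3 control arrays. Both passed when Runx1KO replicate 1 was left out (adjusted p = 0.0461 and 0.0338), and the first also when only the 6 arrays of its groups were fitted (adjusted p = 0.0489). The summed signal of 5 stromal and endothelial markers was lowest in RUNX1(41-214), at 215 to 248, against 318 to 350 in Runx1KO and 284 to 379 in control cells. Col1a2 was at 51.2 to 76.8 in RUNX1(41-214), 110 to 163 in Runx1KO and 117 to 145 in control cells, while 2 of the 5 markers lay above control in RUNX1(41-214) and their median log2 fold change was -0.04. Cdh5, which defines endothelium, stayed between 15.4 and 36.2. The part of such cells in the Plk2 signal was not tested. In sorted bulk cells, fewer cells of a type and less RNA per cell cannot be told apart.

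**Figure D1:**
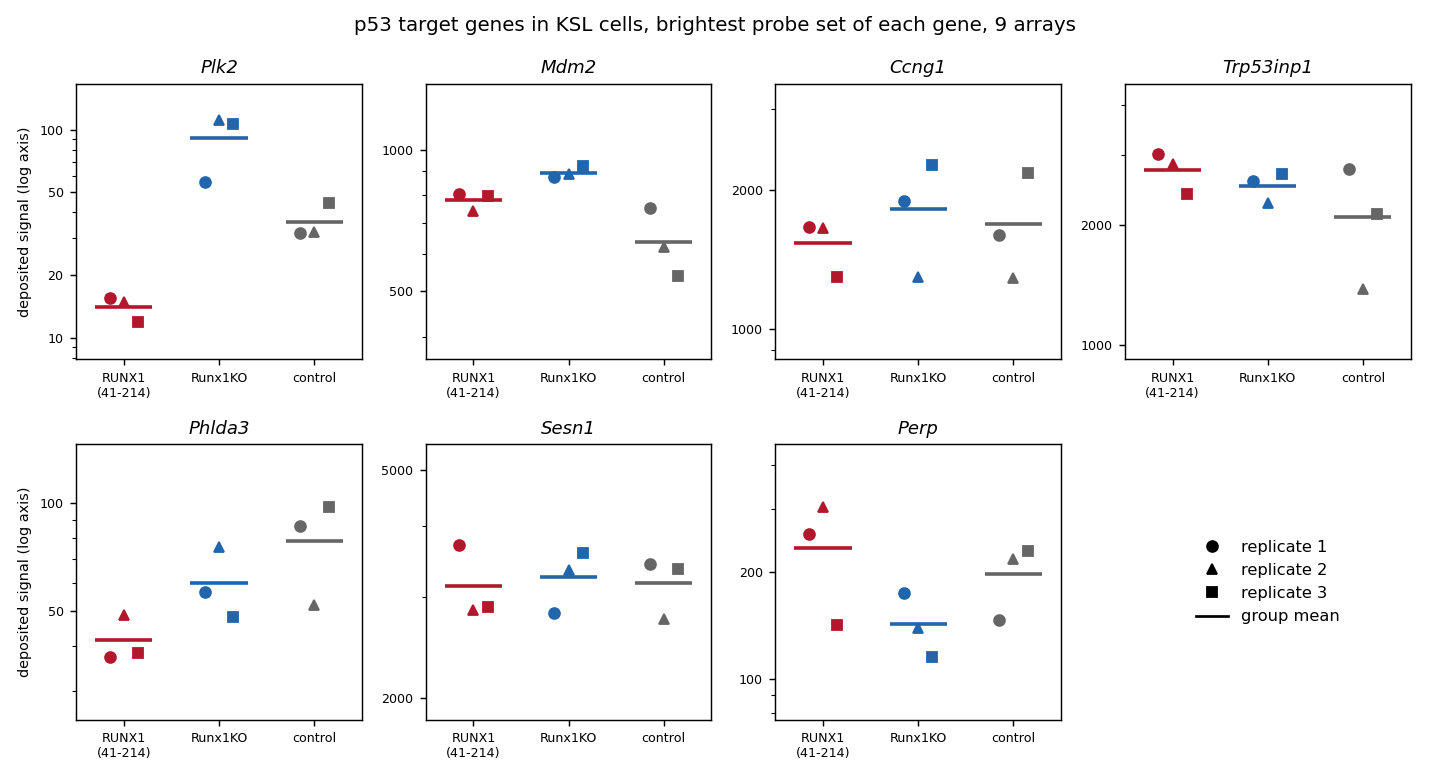
Deposited signal (log axis, arbitrary units) of the brightest probe set of each of 7 p53 target genes on 9 arrays, with a symbol per replicate and a line at the mean of each group. Plk2 separates all 3 groups (11.8 to 15.5 in RUNX1(41-214), 55.9 to 111 in Runx1KO, 31.7 to 44.6 in control cells), whereas Ccng1, Trp53inp1, Sesn1 and Perp overlap.

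Upstream sequence is shown for Plk2, the gene that passed, and for Mdm2 and Ccng1, whose windows held a match to a p53 half-site. A window of Sesn1 also held such a match and is not shown. RefSeq promoters (GRCm38.p6), 250 bases before to 50 after each annotated start, were found for 5 of the 7 genes, on 6 starts. Trp53inp1 and Perp had no entry. Capitals mark matches to the p53 half-site consensus, a palindrome of 10 bases, and to the RUNX core TGTGGT or TGCGGT on either strand (ACCACA or ACCGCA on the reverse), and none of these matches overlap. The windows are chr13:110394794-110395093 (plus strand) for Plk2, chr10:117710709-117711008 (minus strand) for Mdm2 and chr11:40755237-40755536 (minus strand) for Ccng1.
Plk2: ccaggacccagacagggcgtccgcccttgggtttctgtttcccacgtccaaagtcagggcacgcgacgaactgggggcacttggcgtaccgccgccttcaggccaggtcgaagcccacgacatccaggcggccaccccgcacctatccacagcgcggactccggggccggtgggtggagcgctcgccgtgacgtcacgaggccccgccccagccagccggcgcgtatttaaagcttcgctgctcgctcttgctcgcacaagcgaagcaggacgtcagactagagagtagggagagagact
Mdm2: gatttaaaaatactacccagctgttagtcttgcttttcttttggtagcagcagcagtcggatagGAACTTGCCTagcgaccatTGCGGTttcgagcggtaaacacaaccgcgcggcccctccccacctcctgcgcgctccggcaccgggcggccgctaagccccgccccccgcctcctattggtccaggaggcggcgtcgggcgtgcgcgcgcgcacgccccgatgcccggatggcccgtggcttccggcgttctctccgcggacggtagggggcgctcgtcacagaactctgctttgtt
Ccng1: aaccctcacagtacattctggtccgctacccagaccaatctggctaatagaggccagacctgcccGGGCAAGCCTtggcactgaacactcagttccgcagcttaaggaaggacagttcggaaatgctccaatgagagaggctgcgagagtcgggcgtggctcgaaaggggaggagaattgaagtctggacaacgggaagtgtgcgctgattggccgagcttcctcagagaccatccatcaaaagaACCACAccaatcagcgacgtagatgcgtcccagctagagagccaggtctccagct

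An exact p53 half-site was present in 3 of the 6 windows, those of Mdm2, Ccng1 and the downstream start of Sesn1, against 8.36% of the 32851 mouse promoters of the same length. The half-site of Ccng1, GGGCAAGCCT, followed directly on another with 1 mismatch. A pair with at most 1 mismatch and up to 13 bases between its members was found in 1.09% of all promoters. TGTGGT occurred in 1 of the 6 windows (Ccng1), against 16.8% of all promoters, and TGCGGT in 1 (Mdm2), against 6.45%. The window of Plk2 held neither motif, and that of Phlda3 held neither. Since these genes are listed as p53 targets, the half-sites are a description of them, and a response element can lie outside these windows.

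Among the genes that act on p53 itself, Mdm2 was the member measured. Its brighter probe set had signals of 805, 742 and 798 in RUNX1(41-214) cells and 874, 889 and 923 in Runx1KO cells, against 754, 622 and 538 in control cells. The Runx1KO arrays all lay above the control arrays, and RUNX1(41-214) replicate 2 lay below control replicate 1. After normalization the RUNX1(41-214) arrays too lay above all 3 controls. Mdm2 was at 0.33 ± 0.17 (SE, adjusted p = 0.418) in RUNX1(41-214) minus control and at 0.50 ± 0.17 (adjusted p = 0.441) in Runx1KO minus control in limma. The 95% interval of the value in Runx1KO was 0.11 to 0.88 before adjustment for the number of genes. The dimmer probe set of Mdm2 was at 0.10 ± 0.25 and 0.35 ± 0.25 in the same comparisons, with arrays that overlapped.

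Ccng1 encodes cyclin G1, which with a phosphatase subunit regulates Mdm2. Its brightest probe set had signals of 1665, 1655 and 1298 in RUNX1(41-214), 1889.8, 1294 and 2266 in Runx1KO, and 1598, 1291 and 2175 in control cells. The groups overlapped, with the spread within Runx1KO and control cells wider than any difference between groups. The log2 fold changes were -0.12 ± 0.25 (SE) in RUNX1(41-214) and 0.07 ± 0.25 in Runx1KO, each against control. The other 2 probe sets, at 0.17 ± 0.26 and -0.11 ± 0.21 in RUNX1(41-214) and at 0.26 ± 0.26 and 0.05 ± 0.21 in Runx1KO, did not pass either. The sign of the Ccng1 value in Runx1KO turned without the arrays of high Gapdh ratio, where it was at -0.33.

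Of the genes linked to growth arrest and metabolism, Sesn1 codes for a sestrin, an inhibitor of growth signalling through mTORC1. It had signals of 3696, 2848 and 2882 in RUNX1(41-214), 2816, 3343 and 3585 in Runx1KO, and 3429, 2749 and 3365 in control cells. The groups overlapped throughout. Sesn1 was at -0.07 ± 0.15 (SE) in RUNX1(41-214) and at 0.01 ± 0.15 in Runx1KO against control, the narrowest estimates of the 7 genes. Their 95% intervals were -0.39 to 0.26 and -0.32 to 0.33. The second probe set lay at -0.24 ± 0.24 and -0.05 ± 0.24, and the third at 0.30 ± 0.23 and 0.32 ± 0.23, so that the probe sets of this gene differed in sign.

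The remaining members are linked to cell death and survival signalling. Trp53inp1, a stress protein that promotes p53 activity and autophagy, had signals of 3013, 2838 and 2397 in RUNX1(41-214), 2582, 2268 and 2690.1 in Runx1KO, and 2770.3, 1387 and 2136 in control cells. The low control value was that of replicate 2, an array with a high Gapdh ratio. Trp53inp1 was at 0.41 ± 0.21 (SE, adjusted p = 0.392) in RUNX1(41-214) and 0.29 ± 0.21 (adjusted p = 0.858) in Runx1KO against control. Without the arrays of high Gapdh ratio these values were 0.14 and -0.08. The part of RNA quality was not otherwise tested. Its other probe set was dim (12.6 to 53.9) and gave 0.46 ± 0.31 and 0.35 ± 0.31.

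Phlda3 encodes a small protein with a PH domain that holds back the survival kinase Akt. Its signals were 37.3, 48.9 and 38.2 in RUNX1(41-214) and 56.6, 75.6 and 48.0 in Runx1KO, against 86.4, 52.1 and 97.4 in control cells. On the deposited scale every RUNX1(41-214) array lay below every control array, and the Runx1KO arrays overlapped with both. After normalization RUNX1(41-214) and control arrays overlapped too. Phlda3 was at -0.58 ± 0.23 (SE, adjusted p = 0.242) in RUNX1(41-214) and -0.24 ± 0.23 (adjusted p = 0.905) in Runx1KO against control in limma. It did not pass in any of the 19 alternative settings in which it was tested (lowest adjusted p = 0.0640 in RUNX1(41-214) against control, without the arrays of high Gapdh ratio, where the value was -0.81).

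Perp encodes a membrane protein of cell contacts that acts in p53-dependent death. It had signals of 256, 305 and 142 in RUNX1(41-214), 175, 139 and 115 in Runx1KO, and 147, 218 and 229 in control cells. RUNX1(41-214) replicate 3 lay among the Runx1KO arrays, apart from the other two of its group. Perp was at 0.69 ± 0.30 (SE, adjusted p = 0.436) in RUNX1(41-214) minus Runx1KO, at 0.28 ± 0.30 in RUNX1(41-214) minus control and at -0.41 ± 0.30 in Runx1KO minus control. None of these passed in limma. The value in RUNX1(41-214) minus control was 0.05 without RUNX1(41-214) replicate 2, 0.08 without control replicate 1 and 0.60 without RUNX1(41-214) replicate 3, and that in RUNX1(41-214) minus Runx1KO ranged from 0.46 to 1.01 with a replicate left out.

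**Figure D2:**
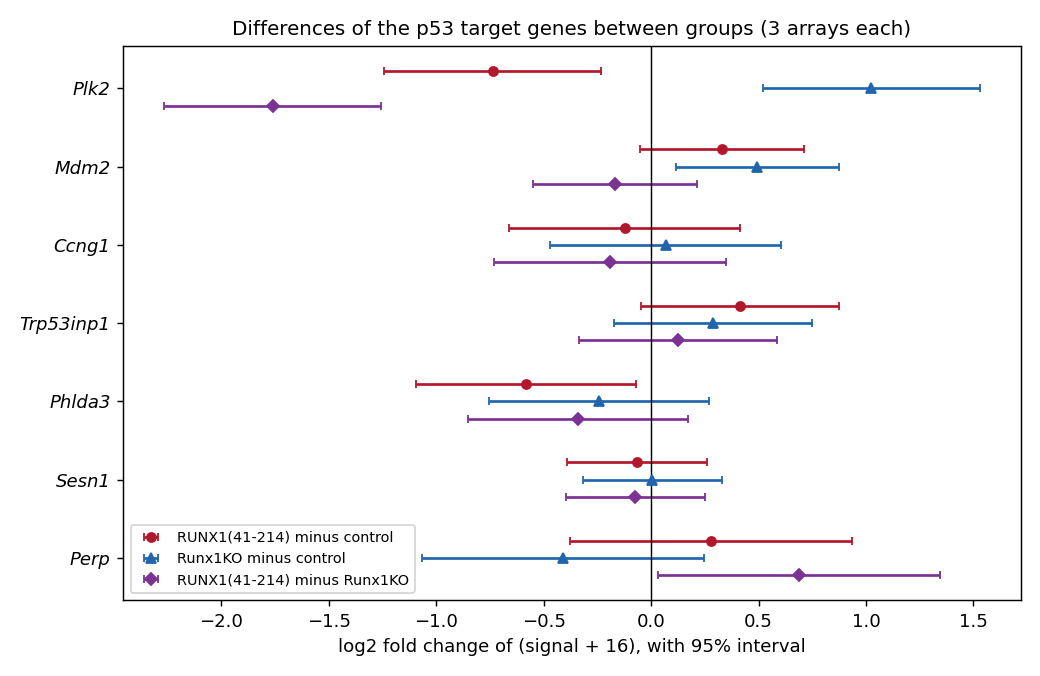
Log2 fold change of (signal + 16) for 7 p53 target genes in the 3 comparisons, with 95% intervals from limma that are not adjusted for the number of genes (3 arrays per group). The interval of Plk2 in RUNX1(41-214) minus Runx1KO, -2.27 to -1.26, lies farthest from 0. The intervals of Ccng1, Trp53inp1 and Sesn1 include 0 in all comparisons.

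Counted together, 0 of the 7 genes passed in RUNX1(41-214) minus control, where 4.28% of all genes did, and 0 of 7 passed in Runx1KO minus control, where 0.347% did. None of the further probe sets of these genes passed either, against 3.05% of all probe sets in RUNX1(41-214) minus control, 0.137% in Runx1KO minus control and 1.08% in RUNX1(41-214) minus Runx1KO. At an unadjusted p under 0.05 the counts were 2 of 7 in each of these comparisons, against 15.5% and 7.22% of all genes. In RUNX1(41-214) minus Runx1KO 2 of 7 reached an unadjusted p under 0.05, against 10.6% of all genes. Arrays did not overlap for 2 of 7 genes in each comparison, those being Plk2 and Mdm2 on the normalized scale, while 20.3%, 10.5% and 18.8% of all genes did not overlap. The median log2 fold change of the 7 genes was -0.07 in RUNX1(41-214) minus control, 0.07 in Runx1KO minus control and -0.17 in RUNX1(41-214) minus Runx1KO, beside 0.02, -0.0040 and 0.02 for all genes. In RUNX1(41-214) minus Runx1KO 2 of 7 lay above 0, against 53% of all genes. With so few genes, shares near those of all genes are no result about the list.

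The rest of the pathway was described with lists of regulators, growth arrest targets, apoptosis targets, and repair and metabolism targets, with relatives of the members and a pair of genes tied to p53 in stem cell quiescence. Of 60 measured genes, 2 rose (Apaf1 and Phlda1) and 2 fell (Rprm and Ndn) in RUNX1(41-214) cells against control (6.67%, where 1.73% of all genes rose and 2.56% fell). The lists, with Ndn among them, were chosen with earlier results of these data known, so this share is a description only. None of the 60 passed in Runx1KO against control in limma, and 7 had an unadjusted p under 0.05, where 7.22% of all genes did. In RUNX1(41-214) minus Runx1KO 1 fell, which was Ndn (1.67%, where 1.36% of all genes passed). The median log2 fold changes of the 60 genes were -0.05, 0.02 and -0.04 in these comparisons.

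Of the 8 growth arrest targets 1 fell in RUNX1(41-214) against control (12.5%, where 2.56% of all genes fell), a share that rests on 1 gene. Rprm, which encodes Reprimo, a cytoplasmic inducer of arrest before mitosis, had signals of 6.26, 15.7 and 12.3 in RUNX1(41-214) and 26.5, 16.4 and 24.3 in Runx1KO, against 58.0, 51.6 and 38.7 in control cells. The groups did not overlap in any pairing, at signals near the bottom of the range. Rprm fell in RUNX1(41-214) with a log2 fold change of -1.21 ± 0.19 (SE, adjusted p = 0.00411 in limma) and was at -0.71 ± 0.19 (adjusted p = 0.228) in Runx1KO. It was no longer tested without dim genes.

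Cdkn1a, the cell cycle inhibitor p21 and the best known growth arrest target, had signals of 122, 166 and 132 in RUNX1(41-214) and 208, 101 and 156 in Runx1KO, against 344, 141 and 373 in control cells. Controls 1 and 3 lay above every other array, and control replicate 2, of high Gapdh ratio, lay among the altered groups. Cdkn1a was at -0.75 ± 0.35 in both comparisons against control (SE, adjusted p = 0.340 for RUNX1(41-214) and 0.700 for Runx1KO in limma). Without control replicate 2 it was at -1.16 in RUNX1(41-214) (adjusted p = 0.0412), and that replicate thus decides the call. The dimmer probe set of Cdkn1a was at -0.56 ± 0.24 in RUNX1(41-214) and -0.72 ± 0.24 in Runx1KO against control. Neither passed (adjusted p = 0.311 and 0.475 in limma over all probe sets).

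Of the 12 apoptosis targets measured, 1 rose in RUNX1(41-214) against control (8.33%, where 1.73% of all genes rose), again a share of 1 gene. Apaf1, the scaffold of the apoptosome that activates caspases, had signals of 1300.2, 1190.4 and 1109 in RUNX1(41-214) and 997, 757 and 1016 in Runx1KO, against 672, 564 and 624 in control cells. The 3 groups did not overlap. Apaf1 rose in RUNX1(41-214) by 0.95 ± 0.18 (SE, adjusted p = 0.0108 in limma) and was at 0.56 ± 0.18 (adjusted p = 0.356) in Runx1KO. Its dimmer probe set was at 0.53 ± 0.43 in RUNX1(41-214), and the mean of both probe sets, 0.74, did not pass (adjusted p = 0.235). The call was also lost without RUNX1(41-214) replicate 1 (adjusted p = 0.0708) and without RUNX1(41-214) replicate 2 (adjusted p = 0.0558).

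Of the BH3-only death inducers, Bbc3, known as Puma, was at 0.66 ± 0.30 in RUNX1(41-214) and 0.60 ± 0.30 in Runx1KO against control (SE), and neither passed (adjusted p = 0.319 and 0.741 in limma). Pmaip1, known as Noxa, was at 0.90 ± 0.47 in RUNX1(41-214) against control, with control replicate 2 at a signal of 3.49 and the other controls at 57.3 and 73.8. Without that replicate the value was 0.23. In RUNX1(41-214) minus Runx1KO Pmaip1 was at 1.17 ± 0.47 (adjusted p = 0.380 in limma), and at 1.40 (adjusted p = 0.0438) without control replicate 2 and Runx1KO replicate 3.

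None of the 15 regulators and none of the 14 repair and metabolism targets passed in any comparison in limma. Of all genes 4.28% passed in RUNX1(41-214) minus control, 0.347% in Runx1KO minus control and 1.36% in RUNX1(41-214) minus Runx1KO. In RUNX1(41-214) against control 1 regulator and 2 targets were at an unadjusted p under 0.05, where 15.5% of all genes were. Mdm4, the partner of Mdm2 that blocks the activation domain of p53, was at 0.28 ± 0.22 in RUNX1(41-214) and 0.25 ± 0.22 in Runx1KO (SE). Of the repair and metabolism targets 3 of 14 lay above control in RUNX1(41-214), with a median of -0.27, and 5 of 14 in Runx1KO, with a median of -0.09. All genes had medians of 0.02 and -0.0040 in these comparisons, with 52.5% and 49.2% above control.

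**Figure D3:**
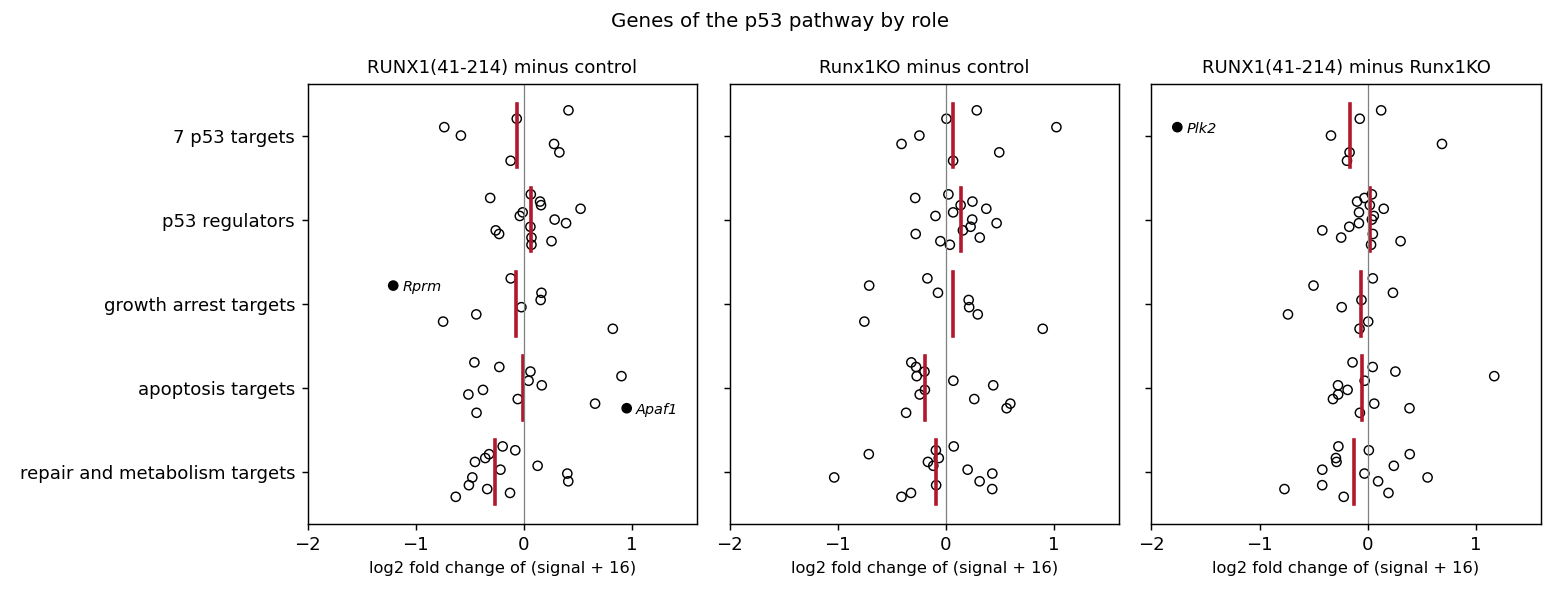
Log2 fold change of (signal + 16) of each gene of the p53 pathway by role, in the 3 comparisons, with a filled circle where the adjusted p was under 0.05 and a red bar at the median of each list. Rprm and Apaf1 passed in RUNX1(41-214) minus control and Plk2 in RUNX1(41-214) minus Runx1KO, and no gene shown passed in Runx1KO minus control.

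Among relatives of the members, Phlda1, a PH-domain relative of Phlda3, rose in RUNX1(41-214) against control. It had signals of 99.1, 119 and 103 in RUNX1(41-214) and 80.8, 83.4 and 72.4 in Runx1KO, against 42.5, 69.2 and 61.0 in control cells. The groups did not overlap, and Phlda1 was at 0.88 ± 0.20 (SE, adjusted p = 0.0297 in limma), opposite in sign to Phlda3 at -0.58. The call was lost in 8 of the 19 alternatives, among them the omission of control replicate 1 (adjusted p = 0.106) and of RUNX1(41-214) replicate 2 (adjusted p = 0.138). The kinases Plk1, Plk3 and Plk4, relatives of Plk2, were at -0.54, 0.16 and 0.15 in RUNX1(41-214) against control and did not pass, and no relative passed in Runx1KO against control.

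Gfi1 and Ndn have been tied to p53 in the quiescence of blood stem cells. Gfi1, a repressor of transcription, was at -0.16 ± 0.28 in RUNX1(41-214) and 0.02 ± 0.28 in Runx1KO against control (SE, adjusted p = 0.862 and 0.996 in limma). Ndn, the growth suppressor necdin, had signals of 19.5, 23.7 and 30.3 in RUNX1(41-214) and 736, 795 and 694 in Runx1KO, against 1284, 1668 and 1474 in control cells. It fell by 5.19 ± 0.19 on the log2 scale in RUNX1(41-214) against control (SE, adjusted p = 4.50e-08 in limma) and lay at -4.20 ± 0.19 against Runx1KO (adjusted p = 3.33e-07). It was at -0.99 ± 0.19 in Runx1KO against control (adjusted p = 0.0580). Of its 8 probe sets 6 separated RUNX1(41-214) from both other groups. Ndn had its lowest values in the same group as Plk2, but in Runx1KO cells it lay below control where Plk2 lay above.

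**Figure D4:**
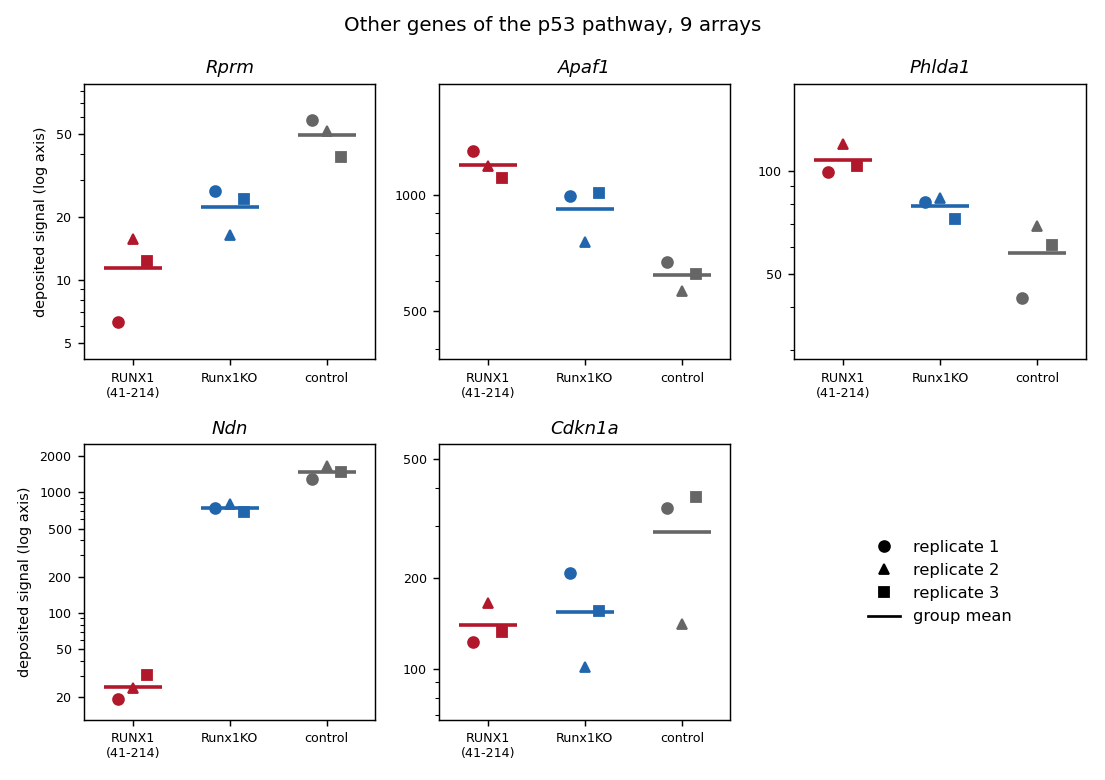
Deposited signal (log axis, arbitrary units) of Rprm, Apaf1, Phlda1, Ndn and Cdkn1a on the 9 arrays, with a symbol per replicate and a line at each group mean. Rprm, Apaf1, Phlda1 and Ndn separate RUNX1(41-214) from control cells, and Cdkn1a does so except for control replicate 2.

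The genes whose pattern over the 9 arrays was most like that of Plk2, among genes above the median signal, were Trappc2 (Pearson r = 0.99), Ndrg4 (0.95), Slfn2 (0.93), Trib3 (0.93) and Ctsh (0.92). Trappc2, a subunit of a vesicle tethering complex, had signals of 357, 363 and 301 in RUNX1(41-214) and 639, 901 and 849 in Runx1KO, against 453, 472 and 497 in control cells. Trib3, a pseudokinase of stress responses, had 337, 343 and 238 in RUNX1(41-214) and 589, 873 and 658 in Runx1KO, against 503, 553 and 551 in control cells. In both genes, as in Plk2, Runx1KO replicate 1 was the lowest of its group. The likeness rests on 9 arrays in 3 groups and was picked from all genes above the median, so it is a description only.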

How the data were processed

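RNA of sorted KSL cells from 3 groups was measured on 9 Affymetrix arrays, 3 per group, after isolation on microcolumns and the 2-cycle biotin labelling, per the labels. Each array came as deposited linear intensity values, 1 for each probe set, between 0.53 and 20215. How the authors summarised and scaled them is not given in the sources used here. Precision is limited by having 3 arrays a group. Of 22690 probe sets 64 controls were set aside. Signals were converted to log2(signal + 16) and quantile normalized, since array medians spanned 0.211, over the limit of 0.2. Probe sets were named from the platform table (20380 with 1 symbol, 691 with several, 1555 with none), of which 20351 matched RefSeq, with 0 symbols changed. The probe set with the highest mean stood for a gene. Group means were estimated from the 9 arrays together in limma 3.58.1 under R 4.3.3, using lmFit and eBayes with a variance trend. P-values were two-sided and adjusted by Benjamini-Hochberg over 12393 genes, with a threshold of 0.05, and over 22626 probe sets for further probe sets. The code was tested on simulated data. The labels do not say that replicates came from separate animals, so p-values measure the spread between these samples.

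The members and lists were chosen with earlier results of these data known. The genes named are all members with each probe set, Runx1, Cdkn1a, Bbc3, Pmaip1, Mdm4, Gfi1 and Ndn, every pathway gene past the threshold, up to 6 per list and comparison, and the 5 genes with the highest correlation with Plk2. Markers, the relatives of Plk2 and the outlying probe sets were named after their values were seen. Of the 71 pathway genes listed 11 were not analysed here, Bax among them. Alternatives covered the normalization, the offset, dim genes, probe set averaging, array weights, the variance trend, a replicate block, the arrays with the highest Gapdh ratios, each replicate, and fits to 6 arrays.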

Additional observations from a re-analysis of the deposited data

How the results depend on the processing

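The call of Plk2 in RUNX1(41-214) against Runx1KO held in all 19 alternatives in which it was tested. Without dim genes Plk2 was not tested, so 0 members passed there in that comparison and in the F test. Against control, 1 member passed in RUNX1(41-214) with only the 6 arrays of its groups. Leaving out a replicate gave 0 to 1 members in each comparison against control, and 1 to 1 in RUNX1(41-214) minus Runx1KO and in the F test. Over all genes, the calls in RUNX1(41-214) against control numbered 262 without dim genes, against 531, and 295 to 613 with a replicate left out. In Runx1KO against control they numbered 9 with 6 arrays, against 43, and 14 to 51 with a replicate left out. In RUNX1(41-214) against Runx1KO they numbered 77 without dim genes and 371 with array weights, against 168, and 74 to 208 with a replicate left out. The F test gave 206 without dim genes and 682 with array weights, against 421, and 209 to 450 with a replicate left out. The causes were not tested beyond the smaller number of genes or arrays.

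Of the pathway genes, 2 passed in RUNX1(41-214) against control without dim genes and 2 to 6 with a replicate left out. In Runx1KO against control 1 (Ndn) passed with an offset of 50, without dim genes and without the variance trend, and 0 to 0 with a replicate left out. In RUNX1(41-214) against Runx1KO 2 passed without the arrays of highest Gapdh ratio (Ndn and Pmaip1), and 1 to 1 with a replicate left out.

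Of the log2 fold changes recomputed, those of Ccng1, Sesn1, Gfi1 and Trp53inp1 changed sign under an alternative, none of which had passed. That of Trp53inp1 was 0.29 in Runx1KO against control. With arrays scaled to a common median, which moved the median of all genes to 0.12 in RUNX1(41-214) against control and 0.11 against Runx1KO, Ccng1 was at 0.023 and Sesn1 at 0.11 against control, and Sesn1 at 0.062 against Runx1KO. With array weights Sesn1 was at -0.12 and Gfi1 at -0.14 in Runx1KO against control, and Sesn1 at 0.049 in RUNX1(41-214) against Runx1KO. Without the arrays of highest Gapdh ratio, Ccng1 was at -0.33, Trp53inp1 at -0.075, Sesn1 at -0.21 and Gfi1 at -0.51 in Runx1KO against control, and Ccng1 at 0.027 and Sesn1 at 0.037 in RUNX1(41-214) against Runx1KO. With a replicate left out, RUNX1(41-214) against control ranged over -0.30 to 0.10 for Ccng1, -0.18 to 0.015 for Sesn1 and -0.54 to 0.10 for Gfi1. Runx1KO against control ranged over -0.15 to 0.31 for Ccng1, -0.10 to 0.13 for Sesn1 and -0.36 to 0.28 for Gfi1. RUNX1(41-214) against Runx1KO ranged over -0.44 to 0.027 for Ccng1 and -0.19 to 0.037 for Sesn1.

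Whether equal replicate numbers mark paired samples was not known here. Deviations of same-numbered arrays correlated at 0.20, -0.15 and -0.03 between RUNX1(41-214) and control, where different numbers gave -0.26 to 0.26. Between Runx1KO and control they correlated at 0.03, 0.41 and 0.42, where different numbers gave -0.47 to 0.14. Between RUNX1(41-214) and Runx1KO they correlated at -0.0021, -0.05 and -0.17, where different numbers gave -0.13 to 0.14. A pairing of Runx1KO with control arrays is thus not excluded. With the replicate block 539, 48 and 171 genes passed in the 3 comparisons and 438 in the F test, the members passing numbered 0, 0 and 1, and Plk2 had an adjusted p = 0.00541 in limma for RUNX1(41-214) against Runx1KO. Signal over background could not be judged for dim genes such as Plk2 and Rprm, since no detection calls were used.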
